A study of Homo sapiens with 4 samples.

Results

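The RAS-RAF-MEK-ERK core genes examined here were HRAS and NRAS (RAS GTPases), ARAF and BRAF (RAF kinases), MAP2K1 and MAP2K2 (the MEK kinases MEK1 and MEK2) and MAPK3 (the ERK kinase ERK1). They were listed by name, as members of 1 signaling cascade, and the listing rule uses no measured value, although earlier results of these data were known when it was written. These are 7 of the 28198 genes in the table. Their mRNAs were followed by polysome profiling in MDA-MB-231 cells, a human triple-negative, mesenchymal breast cancer cell line. The cells had been depleted of METTL3, an m6A RNA methyltransferase, and reconstituted by lentivirus with METTL3-WT or with METTL3-K177Q, an acetylation-mimetic mutant (K177Q below, and WT for METTL3-WT). Both genotypes therefore carry the depletion and an expressed METTL3, and neither is the parental line. Before lysis, both were given cycloheximide (100 µg/mL for 5 min), which holds ribosomes on mRNA, and the lysates were spun through a sucrose gradient (10 to 50%). The gradient was pooled into a sub-polysome fraction, with free mRNA and few ribosomes, and a polysome fraction, with mRNAs that carry many ribosomes. The question put to the data was how far mRNAs sit in polysomes when METTL3 is mutated at this lysine.

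The libraries analysed were 4, 1 per genotype and fraction, all labelled replicate 2. The study made more than 1 replicate, but another replicate was not analysed here, so the replicate error is not given and genotypes were not tested against each other. Levels are in FPKM, fragments per kilobase of transcript scaled to the mapped fragments of a library, as the authors gave them. A change common to every mRNA of a library is lost in this unit. The file gives no counts, and the lowest cluster of values put each library at about 24500000 to 26100000 fragments. The standard errors and intervals below were derived from this approximate depth. They cover counting error only, so an interval that leaves out 0 compares 2 libraries and not 2 conditions. METTL3 mRNA was at 9.39 FPKM outside and 38.7 FPKM within polysomes of WT cells, against 5.07 and 29.5 FPKM in K177Q cells. Since both genotypes express METTL3 mRNA, its level does not check the labels. Markers of the line were high (VIM between 677 and 1543 FPKM, CD44 between 110 and 151 FPKM). Among genes low in this line, ESR1 and PGR stayed at or below 0.0119 and 0.00659 FPKM. CDH1 reached 0.632 FPKM, and GATA3 and EPCAM, between 2.83 and 4.95 FPKM and between 6.20 and 9.91 FPKM, were detected in every library.

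RAS proteins are membrane-bound switches that cycle between a GDP-bound and a GTP-bound state. Growth factor receptors load them with GTP through adaptors and exchange factors. GTP-bound RAS recruits RAF kinases, which phosphorylate MEK, and MEK phosphorylates ERK. Active ERK phosphorylates other kinases and transcription factors, and it induces phosphatases and Sprouty proteins that damp the cascade. In breast cancer cells with a mesenchymal phenotype this cascade drives proliferation and migration.

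Ribosomes select the start codon by its surroundings, so the bases around the annotated start codon of the 7 mRNAs are shown first. The windows hold 9 bases before the ATG (in capitals) and 3 after it, from the canonical GENCODE 44 transcripts on GRCh38.
HRAS, chr11:534317-534331, minus strand: tgaggagcgATGacg
NRAS, chr1:114716155-114716169, minus strand: tggtgtgaaATGact
ARAF, chrX:47562959-47562973, plus strand: taaggctccATGgag
BRAF, chr7:140924698-140924712, minus strand: ggttataagATGgcg
MAP2K1, chr15:66387339-66387353, plus strand: gggtccaaaATGccc
MAP2K2, chr19:4123870-4123884, minus strand: ggagccccgATGctg
MAPK3, chr16:30123204-30123218, minus strand: ggagtggagATGgcg
A purine 3 bases before the ATG, the strongest element of the Kozak context, was present in 5 of the 7, against 87.6% of 10207 mRNAs with such a window. ARAF and MAP2K2 lack it. A G directly after the ATG was present in ARAF, BRAF and MAPK3, against 54.5% of these mRNAs. Both elements were found in BRAF and MAPK3, against 47.7% of these mRNAs. Among the transcripts, BRAF and MAP2K2 begin with at least 5 pyrimidines in a row (in capitals), a feature of mRNAs with a terminal oligopyrimidine tract.
BRAF, chr7:140924910-140924929, minus strand: CTTCCCCCaatcccctcagg
MAP2K2, chr19:4124103-4124122, minus strand: CTCTCggactcgggctgcgg
Such a start was found in 5.82% of 9774 mRNAs, and MAPK3, with an annotated 5′ UTR of 11 bases, was not assessed. These annotated starts may not be those used in the cells, and a match is a description of the annotation only. The polysome values of MAP2K2 and of BRAF, which rest on few fragments, are given below. A link of these values to such a start was not tested.

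The levels of the core genes spanned a wide range, and the order was nearly the same in every library. HRAS and MAP2K2 were the most abundant, at 158 FPKM or more in each library. MAPK3, ARAF, MAP2K1 and NRAS lay between 15.3 and 74.3 FPKM. BRAF was the lowest and stayed below 1 FPKM everywhere. In both sub-polysome libraries the order from high to low was HRAS, MAP2K2, MAPK3, ARAF, MAP2K1, NRAS and BRAF. In WT polysomes MAP2K2 stood above HRAS. In K177Q polysomes MAP2K1 and ARAF stood level as well, at 53.7 and 53.6 FPKM. With 1 library per condition, the spread between replicates behind these orders is unknown.

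**Figure D1:**
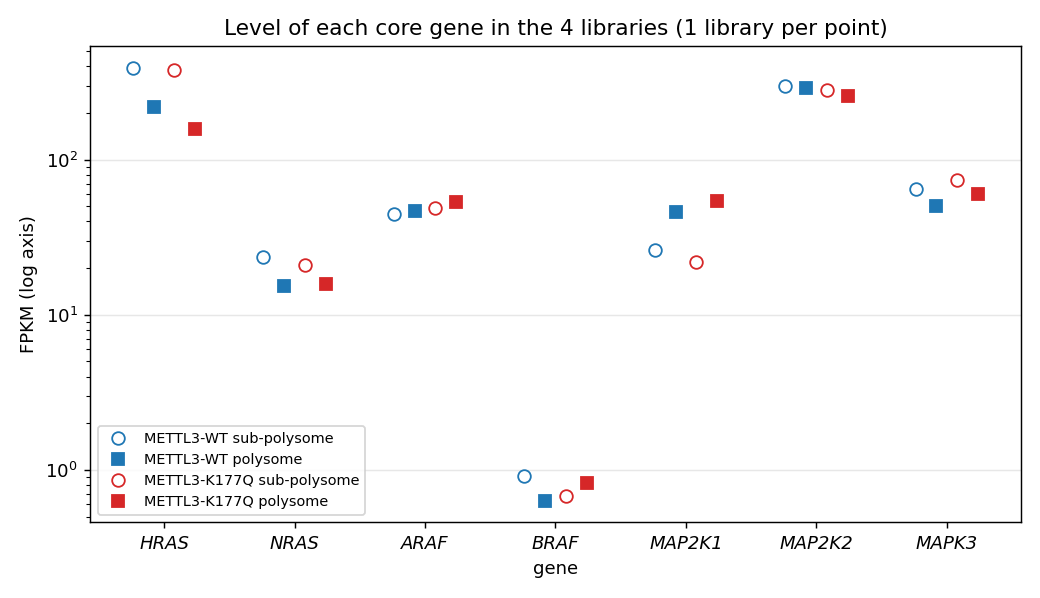
FPKM (log axis) of each core gene in the 4 libraries, 1 point per library, with WT in blue, K177Q in red, open circles for sub-polysome and filled squares for polysome. HRAS falls from 391.8 to 217 FPKM between the fractions of WT cells and from 379 to 158 FPKM in K177Q cells, MAP2K1 goes the other way, and BRAF lies below 1 FPKM throughout.

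HRAS (chromosome 11, 532242 to 537321, minus strand), a RAS GTPase that also shuttles through the Golgi by palmitoylation, measured 391.8 FPKM in WT sub-polysomes and 217 FPKM in WT polysomes. The K177Q values were 379 FPKM outside and 158 FPKM within polysomes. The sub-polysome values were close to each other, and the K177Q polysome value was the lowest of the 4. The log2 polysome to sub-polysome ratio, computed after adding 0.1 FPKM to each value, was -0.85 in WT and -1.26 in K177Q cells, 1.80-fold and 2.40-fold lower in polysomes. Relative to the other mRNAs of each library, HRAS was thus lower in polysomes in both genotypes. The log2 translation efficiency ratio, the K177Q minus the WT value of this ratio, was -0.41 (counting SE 0.035), 1.33-fold lower in K177Q cells. It stood at percentile 13.9 among the 10905 genes averaging 1 FPKM or more. As the values were given, nearly all of it came from the polysome fraction, where the log2 K177Q to WT ratio was -0.46. This was percentile 5.53 of those genes. In the sub-polysome fraction the log2 K177Q to WT ratio was -0.05. After the libraries were rescaled to TPM (the same FPKM total in each), the translation efficiency ratio of HRAS was -0.11. It was -0.17 after equal totals without ribosomal protein genes. Under TPM the fractions gave -0.36 in polysomes and -0.25 outside them. Relative to the median of all genes, these were -0.43 and -0.05.

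NRAS (chromosome 1, 114704469 to 114716771, minus strand), the second RAS GTPase, gave 23.7 FPKM outside and 15.3 FPKM within polysomes of WT cells. In K177Q cells the values were 20.8 and 15.7 FPKM. The polysome values were almost equal, while the K177Q sub-polysome value was the lower of its pair. Like HRAS, NRAS mRNA was lower in polysomes than outside them in both genotypes, with a log2 ratio of -0.63 in WT and -0.40 in K177Q cells as the values were given. After TPM rescaling, the K177Q ratio of NRAS was 0.03. Its log2 translation efficiency ratio was 0.23 (counting SE 0.064), at percentile 76.3, in the opposite direction to that of HRAS. The fractions contributed 0.04 from the polysome and -0.19 from the sub-polysome side. The difference between HRAS and NRAS in log2 translation efficiency ratio was -0.64 (counting SE 0.073).

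The RAF kinases differed in abundance more than any other pair. ARAF (chromosome X, 47561205 to 47571908, plus strand) gave 44.8 FPKM outside and 46.6 FPKM within WT polysomes, and 48.7 and 53.6 FPKM in K177Q cells. These 4 values lay close together, with both K177Q values above the WT value of the same fraction. For ARAF the log2 polysome to sub-polysome ratio was 0.06 in WT and 0.14 in K177Q cells, and its log2 translation efficiency ratio was 0.08 (counting SE 0.053). Within the polysome fraction the log2 K177Q to WT ratio was 0.20, and within the sub-polysome fraction it was 0.12.

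BRAF (chromosome 7, 140719327 to 140924929, minus strand), the RAF kinase with the highest basal activity toward MEK, was measured at 0.912 FPKM outside and 0.634 FPKM within WT polysomes. In K177Q cells the order of the fractions was the other way, with 0.675 FPKM outside and 0.822 FPKM within polysomes. At a mean of 0.761 FPKM it was the core gene that failed the minimum of 1 FPKM. Each value rests on about 107 to 153 fragments. The log2 polysome to sub-polysome ratio was -0.46 in WT and 0.25 in K177Q cells, and the log2 translation efficiency ratio was 0.71 (counting SE 0.26, 95% interval 0.20 to 1.22), 1.64-fold higher. This value depended on the pseudocount, being 0.35, below 1.5-fold, with 1 FPKM added and 0.80 with 0.01 FPKM added, and it was 0.99 after TPM rescaling. Of the 1171 genes with a mean between 0.5 and 1 FPKM, 39.8% were past 1.5-fold in this ratio (19.7% higher and 20.1% lower), and BRAF stood at percentile 86.3 among them. The canonical BRAF transcript shares 160 exonic bases with a long noncoding RNA on the opposite strand that has no values here. The BRAF locus also overlaps NDUFB2 on the opposite strand, without shared exonic bases in the canonical transcript. NDUFB2 was far more abundant (276 to 493 FPKM) and had a log2 translation efficiency ratio of -0.20. Whether the counting used strand is not stated, and a part of NDUFB2 reads in the BRAF value was not tested.

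MAP2K1 (chromosome 15, 66386837 to 66491656, plus strand), which encodes MEK1, gave 25.96 FPKM outside and 45.8 FPKM within polysomes of WT cells. In K177Q cells the values were 22.01 FPKM outside and 53.7 FPKM within polysomes. Both polysome values lay above both sub-polysome values, and the K177Q values were the extremes at either end. The log2 polysome to sub-polysome ratio was 0.82 in WT and 1.28 in K177Q cells, 1.76-fold and 2.43-fold higher in polysomes. Of the 7 core mRNAs, MAP2K1 had the highest such ratio in both genotypes. Its log2 translation efficiency ratio was 0.47 (counting SE 0.063, 95% interval 0.34 to 0.59), 1.38-fold higher in K177Q cells and at percentile 92.3. As given, the fractions contributed about equally, with a log2 K177Q to WT ratio of 0.23 in polysomes and -0.24 outside them. After TPM rescaling these were 0.32 and -0.44. Opposite signs in the fractions were found in 44.7% of all genes as given. The canonical MAP2K1 transcript shares 324 exonic bases with a long noncoding RNA on the opposite strand that has no values here. It shares 216 exonic bases with SNAPC5, also on the opposite strand. SNAPC5 had 4.76 to 15.3 FPKM and a log2 translation efficiency ratio of -0.42, in the opposite direction to MAP2K1. The part of either overlapping gene in the MAP2K1 values was not tested.

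MAP2K2 (chromosome 19, 4090321 to 4124122, minus strand), which encodes MEK2, gave 297 FPKM outside and 288 FPKM within polysomes of WT cells, and 281 and 258 FPKM in K177Q cells. Its 4 values were within a narrow range, with the K177Q value lower in each fraction. Between fractions its log2 ratio was -0.05 in WT and -0.12 in K177Q cells, but 0.09 and 0.31 after TPM rescaling. Its log2 translation efficiency ratio was -0.08 (counting SE 0.026) as the values were given, but 0.22 after TPM rescaling and 0.16 after equal totals without ribosomal protein genes. Those scalings also moved the median of all genes, from -0.01 to 0.29 and 0.23. Relative to the median of all genes MAP2K2 was at -0.07 as given and -0.06 under either scaling.

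MAPK3 (chromosome 16, 30114105 to 30123506, minus strand), which encodes ERK1, the last kinase of the cascade, gave 64.8 FPKM outside and 50.4 FPKM within polysomes of WT cells, and 74.3 and 60.2 FPKM in K177Q cells. As given, each K177Q value was above the WT value of the same fraction, and each sub-polysome value was above the polysome value of the same genotype. Polysome over sub-polysome gave a log2 ratio of -0.36 in WT and -0.30 in K177Q cells, the latter 0.13 after TPM rescaling. The log2 K177Q to WT ratio was 0.26 in polysomes and 0.20 outside them, so that the log2 translation efficiency ratio was 0.06 (counting SE 0.055).

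At 1.5-fold, the limit used in the study, 1 of the 6 core genes averaging 1 FPKM or more was higher in WT polysomes than outside them (MAP2K1), where 28.1% of all 10905 genes were. HRAS and NRAS were lower, where 19.1% of all genes were, and 47.3% of all genes passed in either direction. In K177Q cells MAP2K1 was again higher, against 30.2% of all genes, and HRAS was lower, against 21.3% (51.5% in either direction). NRAS, at 1.32-fold lower, no longer passed the limit. The median log2 polysome to sub-polysome ratio of the 6 was -0.20 in WT and -0.21 in K177Q cells, beside 0.14 and 0.16 over all genes. The plot of these ratios shows the RAS genes below the middle 50% of all genes in WT cells and MAP2K1 above it in both genotypes.

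**Figure D2:**
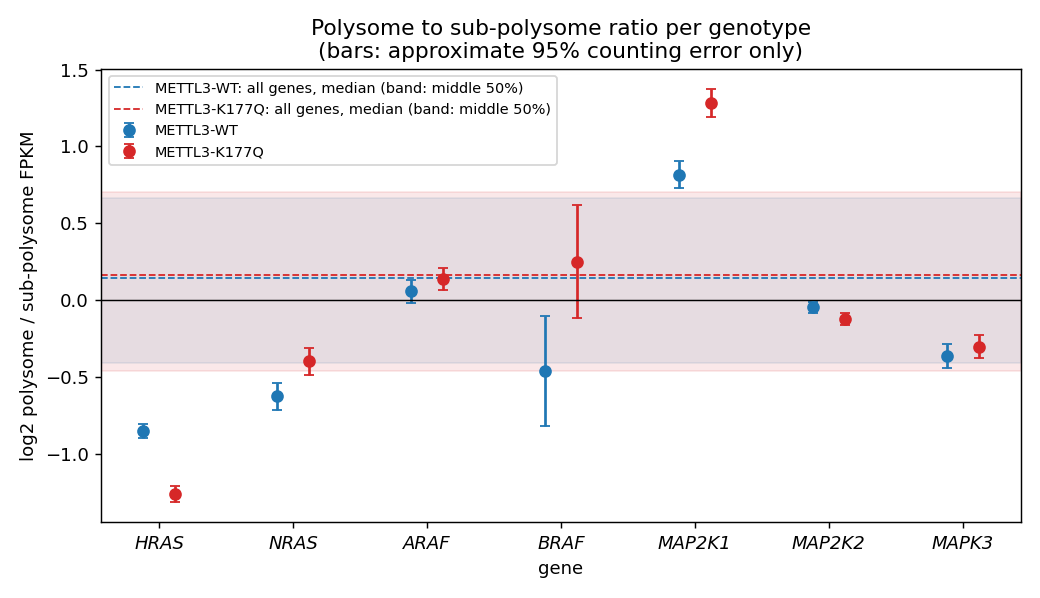
Log2 polysome to sub-polysome FPKM ratio of each core gene in WT (blue) and K177Q cells (red), with bars for the approximate 95% counting error; dashed lines are the medians of the 10905 genes (0.14 and 0.16) and bands their middle 50%. HRAS (-0.85 and -1.26) and MAP2K1 (0.82 and 1.28) lie farther from 0 in K177Q than in WT cells, and BRAF changes sign with wide bars.

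For the log2 translation efficiency ratio, 0 of the 6 core genes passed 1.5-fold in either direction, where 4.08% of all genes were higher and 7.03% lower. With 1 library analysed per condition there was no test behind this count. It depended on the scaling. MAP2K1 passed the limit after TPM rescaling (0.76) and after equal totals without ribosomal protein genes (0.70), where the counts over all genes turned from 445 higher and 767 lower to 2070 and 315, and to 1523 and 340. The core genes did not move together. Of the 6, NRAS, ARAF, MAP2K1 and MAPK3 had a ratio above 0 and HRAS and MAP2K2 below it, with a median of 0.07 beside -0.01 over all genes. Within the polysome fraction 0 of 6 passed 1.5-fold, against 5.25% of all genes (2.13% higher and 3.13% lower), and within the sub-polysome fraction 0 of 6, against 6.95% (4.01% higher and 2.94% lower). In FPKM as given, the approximate 95% counting interval of the translation efficiency ratio included 0 for ARAF (-0.02 to 0.19) and MAPK3 (-0.05 to 0.17). It left out 0 for the other core genes. After TPM rescaling the ratio was 0.38 for ARAF, 0.36 for MAPK3 and 0.22 for MAP2K2. Relative to the median of all genes under TPM, these were 0.09, 0.07 and -0.06.

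**Figure D3:**
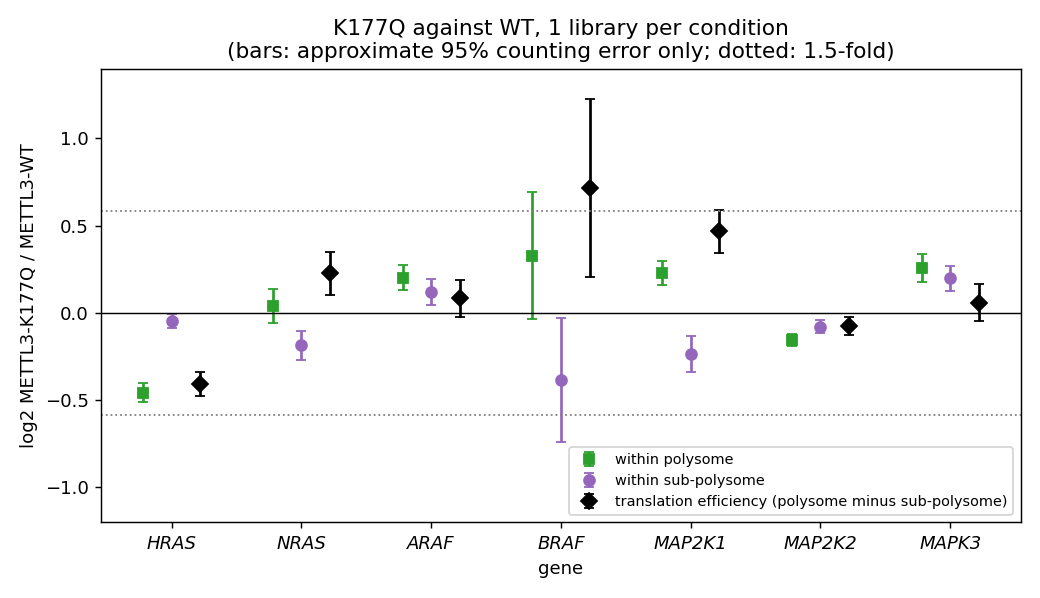
Log2 K177Q to WT ratio of each core gene within polysomes (green squares), within the sub-polysome fraction (purple circles) and their difference, the translation efficiency ratio (black diamonds), with bars for the approximate 95% counting error and dotted lines at 1.5-fold. As the values were given, HRAS (-0.41) and MAP2K1 (0.47) have the ratios farthest from 0 among the genes averaging 1 FPKM or more. For HRAS this comes mostly from the polysome fraction and for MAP2K1 from both.

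The RAS paralogues differed from each other in polysome loading, and so did the MEK paralogues. HRAS exceeded NRAS 16.6-fold in FPKM outside and 14.2-fold within polysomes of WT cells. In K177Q cells the fold was 18.2 outside polysomes and 10.1 in them. HRAS thus made up between 91.0% and 94.8% of the summed HRAS and NRAS FPKM, with the lowest share in K177Q polysomes. MAP2K2 exceeded MAP2K1 11.5-fold outside but 6.28-fold within WT polysomes, and 12.8-fold and 4.81-fold in K177Q cells. As a share of the summed MEK FPKM, MAP2K1 had 8.03% outside and 13.7% in polysomes of WT cells, and 7.26% and 17.2% in K177Q cells. The sum of MAP2K1 and MAP2K2 itself stayed between 303 and 334 FPKM. The log2 polysome to sub-polysome ratio of MAP2K1 was 0.86 above that of MAP2K2 in WT cells and 1.41 above it in K177Q cells, a difference in translation efficiency ratio of 0.54 (counting SE 0.068). ARAF exceeded BRAF between 49.1-fold and 73.4-fold, and ARAF made up at least 98.0% of their sum in each library. The log2 polysome to sub-polysome ratio of ARAF minus that of BRAF was 0.52 (counting SE 0.19) in WT cells. In K177Q cells it was -0.11 (counting SE 0.19), within the counting error.

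The transcripts of the core genes differ in length and composition. The coding sequences of HRAS and NRAS have 570 bases each, those of MAPK3, MAP2K1 and MAP2K2 have 1140, 1182 and 1203 bases, and those of ARAF and BRAF have 1821 and 2301 bases. Despite equal coding lengths, HRAS and NRAS differ in the 3′ UTR, with 286 bases in HRAS and 3625 bases in NRAS, and in GC content of the coding sequence, with 59.1% and 44.4%. The MEK mRNAs likewise have coding sequences of nearly equal length, but MAP2K1 has the longer 5′ UTR (436 against 247 bases) and 3′ UTR (929 against 277 bases). In both pairs the gene with the higher translation efficiency ratio had the longer 3′ UTR, the longer transcript and the lower GC content of the coding sequence. The 5′ UTR was the longer in MAP2K1 but the shorter in NRAS. The part of each feature was not tested. At least 1 ATG lies in the annotated 5′ UTR of HRAS, NRAS, ARAF and MAP2K2, a feature of 37.6% of 10291 mRNAs.

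Over these 10291 mRNAs, the translation efficiency ratio rose with length. Spearman's rho was 0.461 with coding length, 0.479 with transcript length and 0.314 with 3′ UTR length, across genes that share the same 4 libraries and are not independent replicates. The median log2 ratio of mRNAs went from -0.24 in the shortest quintile of coding length through -0.10, -0.007 and 0.09 to 0.21 in the longest. Set beside the quintile that holds each gene, HRAS was below its median and NRAS well above it. MAP2K1 was above and MAP2K2 below the median of the quintile they share, which is -0.007. ARAF, at 0.08, was close to the median of its quintile, 0.09. BRAF, at 0.71, lies just under the limit between the 2 longest quintiles, with the counting error given above.

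**Figure D4:**
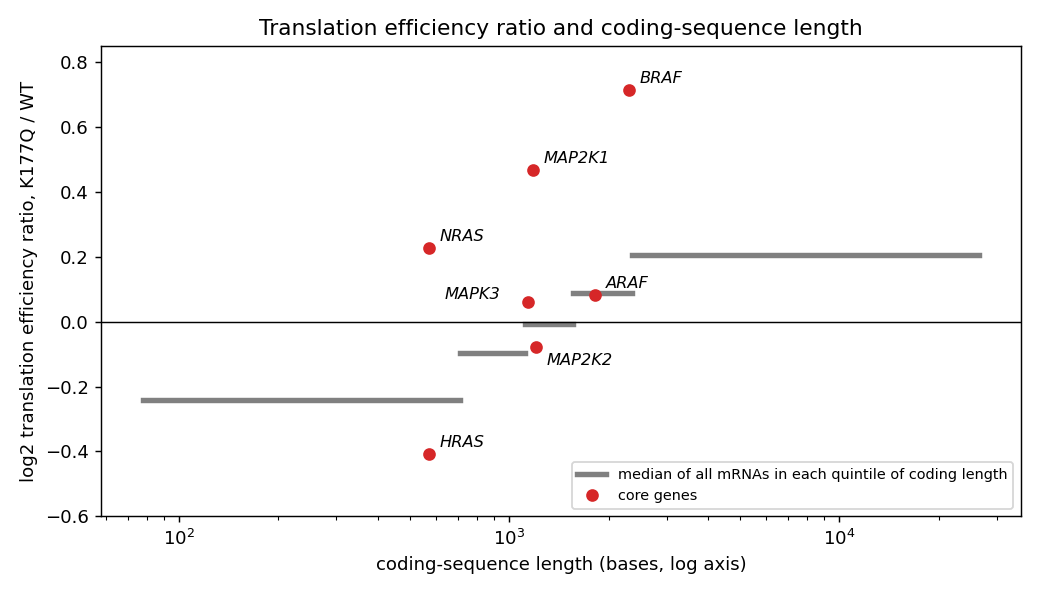
Log2 translation efficiency ratio (K177Q to WT) of each core gene (red points) against the coding-sequence length of its canonical transcript (bases, log axis), with grey lines for the median of all mRNAs in each quintile of coding length. The medians go from -0.24 to 0.21, and HRAS (-0.41) and NRAS (0.23) lie on opposite sides of the same grey line.

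The genes with the most similar pattern over the 4 libraries, by Euclidean distance between log2 values centred on each gene's mean, were RWDD1 for HRAS, CERK for NRAS, PTPRS for ARAF, APPL2 for BRAF, HUWE1 for MAP2K1, SLC25A44 for MAP2K2 and CYBRD1 for MAPK3. The candidates were 7207 genes averaging 5 FPKM or more (7208 for BRAF). Within a distance of 0.2 there were 72 genes for HRAS, 114 for MAP2K1, 181 for MAPK3, 186 for NRAS, 325 for ARAF and 373 for MAP2K2. BRAF had 31 such genes, the fewest, and its nearest was at 0.138.

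The surroundings of the core genes in the pathway were described with 9 lists of 100 genes, of which 89 had a mean of at least 1 FPKM. Their median log2 translation efficiency ratio was 0.07, beside -0.01 over all genes, and 3 were past 1.5-fold higher (3.37%) and 2 lower (2.25%). Over all genes these shares were 4.08% and 7.03%, which are not below those of the lists. IGF1R (0.62), the insulin-like growth factor receptor, KSR1 (0.63), a scaffold that holds RAF, MEK and ERK together, and ETV1 (0.62), an ETS transcription factor, were higher. ERBB3 (-0.71), a receptor partner of ERBB2, and MAPK11 (-0.61), a p38 kinase, were lower. These 5 genes were low, and their counting SE ran from 0.108 (IGF1R) to 0.275 (MAPK11).

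Upstream of the core genes, 13 of 14 receptors and adaptors had a log2 translation efficiency ratio above 0, with a median of 0.15, where 48.9% of all genes were above 0 and their median was -0.01. Among RAS GTPase-activating proteins and SPREDs, which switch RAS off, 6 of 8 were above 0, with a median of 0.30 and a range from -0.33 (SPRED3) to 0.55 (SPRED2). The lists were not matched to all genes for coding length, with which this ratio rose, to a median of 0.21 in the longest quintile. The part of length in the list values was not tested. The other RAS-related small GTPases had a median of -0.03, from -0.43 for RRAS, near the value of HRAS, to 0.30 for RAP1B. The enzymes that lipidate and sort RAS had a median of -0.04, from -0.21 (LYPLA2, a depalmitoylating thioesterase) to 0.07 (ICMT, which methylates the RAS C terminus). Scaffolds and RAF regulators had a median of 0.02, with PEBP1, an inhibitor of the RAF to MEK step, lowest at -0.12. HRAS (-0.41) lay below each of these list medians and MAP2K1 (0.47) above each.

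Downstream, most of the listed genes that ERK induces had higher values in K177Q cells in both fractions, and the median log2 translation efficiency ratio was 0.03 for the phosphatases and Sprouty inhibitors and 0.09 for the other target genes. Of the ERK phosphatases and Sprouty inhibitors, 8 of 8 had more FPKM in K177Q cells in polysomes (median log2 ratio 0.42, range 0.19 to 0.55) and 8 of 8 outside them (median 0.32, range 0.14 to 0.51), beside medians of -0.02 and -0.004 over all genes. Over all genes, 46.2% were above 0 in polysomes and 49.4% outside them. However, 0 of the 8 passed 1.5-fold in either fraction, against 2.13% and 4.01% of all genes higher. After TPM rescaling 8 of 8 were above 0 in polysomes and 7 of 8 outside them, and 8 of 8 stayed above the median of all genes in each. Of the ERK transcriptional target genes, 12 of 12 were above 0 in polysomes (median 0.24) and 9 of 12 outside them (median 0.09, but -0.11 with 5 of 12 above 0 after TPM rescaling). Of the core genes, MAPK3 (0.26 and 0.20) and ARAF (0.20 and 0.12) were above 0 in both fractions as the values were given. Outside polysomes this was lost after TPM rescaling, with -0.0086 for MAPK3 and -0.09 for ARAF, and after equal totals without ribosomal protein genes, with -0.003 and -0.08. EGR1, an immediate early gene picked here after its values were seen, had a log2 ratio of 0.94 in polysomes and 0.97 outside them, at 1.85 to 6.23 FPKM. The spread of these levels between cultures of 1 genotype was not analysed here.

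The remaining lists were the kinases that ERK activates and the parallel MAP kinase cascades. The translation efficiency ratio of ERK-activated kinases had a log2 median of 0.18, from -0.30 for MKNK2 to 0.57 for MKNK1, which both phosphorylate eIF4E. RPS6KA2, a ribosomal S6 kinase also picked after its values were seen, was past 1.5-fold higher in polysomes (0.97) and outside them (0.82). For the p38, JNK and ERK5 cascade kinases the median was -0.003, with MAP2K4 highest at 0.27. In translation efficiency, the 2 MEK genes of the ERK cascade therefore lay at 0.47 and -0.08 around a parallel set centred near 0.

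**Figure D5:**
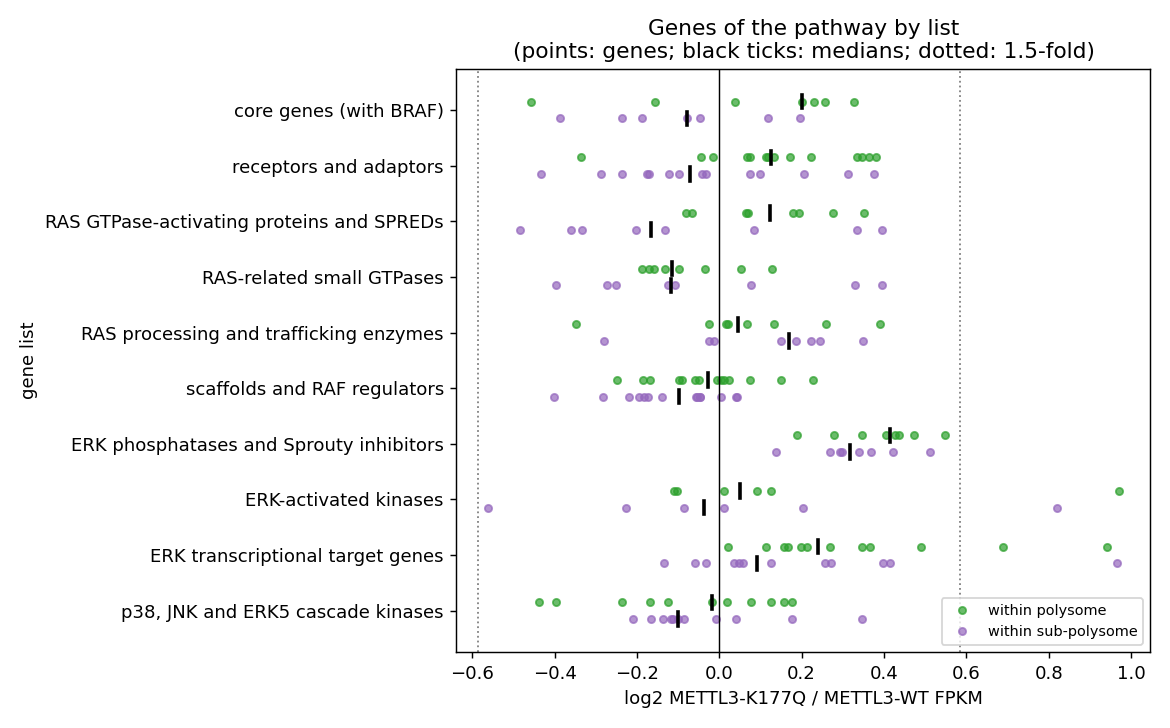
Log2 K177Q to WT FPKM ratio of the core genes and of the genes of each pathway list averaging 1 FPKM or more (BRAF, below it, is also drawn), within polysomes (green) and within the sub-polysome fraction (purple), with black ticks for medians and dotted lines at 1.5-fold. The ERK phosphatases and Sprouty inhibitors lie to the right of 0 in both fractions (medians 0.42 and 0.32), while the core genes lie on both sides.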

How the data were processed

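Polysome profiling libraries of MDA-MB-231 cells with METTL3-WT or METTL3-K177Q were poly(A)-selected and strand-directional. The authors deposited a table of FPKM values per gene. The submitters' processing notes name STAR 2.7, StringTie 2.1.5 and the build hg38, with no role or order, and the annotation is not given in the sources used here. In the table, 4 further columns of values, with another replicate number in their names, matched no listed sample and were not used. Nothing says whether counting used strand.

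From the deposited FPKM, log2 ratios were computed after adding 0.1 FPKM. Kept were the 10905 of 28198 genes averaging 1 FPKM or more across the 4 libraries, and values past 1.5-fold were counted. With 1 library per group no test was made. Depth was approximated by taking the lowest cluster of FPKM times transcript length in kilobases, between 0.03 and 0.05, as 1 fragment. These limits were set after the values were seen, and standard errors from them cover counting error only. Sequences, positions and lengths are those of GENCODE 44 canonical transcripts on GRCh38, and 99.1% of kept mRNA genes had a coding length.

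The core genes were listed by name and the pathway lists by function, in both cases with earlier results of these data known. Named genes are the 7 core genes, METTL3, the extremes of each list in translation efficiency ratio, list genes past 1.5-fold, and the nearest gene to each core gene. EGR1 and RPS6KA2 were added after their values were seen. Further RAS, RAF and ERK paralogues are not reported here, and pseudogenes of the core genes were not analysed here. The alternatives were other pseudocounts, minimums, scalings and a 2-fold limit. The calculation was tested on simulated data. Calculations ran in Python 3.11.15 (numpy 2.4.6, pandas 2.3.3, matplotlib 3.10.9, scipy 1.17.1).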

Additional observations from a re-analysis of the deposited data

Results flagged for a closer look

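BRAF had a log2 polysome to sub-polysome ratio of 0.25 in METTL3-K177Q cells and -0.46 in METTL3-WT cells, that is, of opposite sign in the genotypes, as did 12.3% of all genes averaging 1 FPKM or more. The log2 METTL3-K177Q to METTL3-WT ratio had opposite signs in the fractions for BRAF (0.33 in polysomes and -0.39 outside them), for MAP2K1 (0.23 and -0.24) and for NRAS (0.04 and -0.19). Such opposite signs were found in 44.7% of all genes, and a higher polysome with a lower sub-polysome value, the direction of all 3 genes, in 20.8%. None of these differences was tested, since each condition has 1 library. BRAF averages 0.761 FPKM, below the minimum of the genes behind these shares, which were not computed for genes of its level. Between 0.5 and 1 FPKM, 39.8% of genes were past 1.5-fold in translation efficiency ratio, against 11.1% of genes averaging 1 FPKM or more. The approximate 95% counting interval of the polysome ratio included 0 for NRAS (-0.06 to 0.13) and for BRAF (-0.04 to 0.69).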

How the results depend on the processing

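No paired analysis was possible because each genotype and fraction has 1 analysed library, and for the same reason no replicate could be left out. Over 8 alternatives, 219 of 280 values of the core genes moved by less than their own approximate 95% counting error, which is widest for BRAF. The other minimums and the 2-fold limit cannot move these values, so that share says little about stability. Under TPM 30 of 35 values moved by more than this error, under equal totals 19 of 35 and under size factors 12 of 35. In all, 12 values changed sign, 7 of them under TPM, 4 under equal totals and 1 under size factors (ARAF in METTL3-WT polysomes, -0.04). TPM shifted the translation efficiency ratio of all genes by 0.30 and equal totals without ribosomal protein genes by 0.24. Relative to the median of all genes, HRAS was at -0.40 and MAP2K1 at 0.48 as given and under both.

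With TPM, the median of the core genes was -0.069 for the METTL3-WT polysome to sub-polysome ratio (1 gene lower), 0.22 for METTL3-K177Q, 0.37 for the translation efficiency ratio (1 gene higher, MAP2K1 at 0.76) and -0.27 in the sub-polysome fraction. The median translation efficiency ratio of all genes was then 0.29, with 2070 genes higher and 315 lower, and 17 pathway genes were higher and 1 lower. With equal totals without ribosomal protein genes, the core gene medians were 0.0011 for METTL3-K177Q, 0.31 for the translation efficiency ratio (1 gene higher, MAP2K1 at 0.70) and -0.26 in the sub-polysome fraction. All genes had a median of 0.23, with 1523 higher and 340 lower, and 12 pathway genes were higher and 0 lower. With size factors the METTL3-K177Q median of the core genes was -0.32. Without a minimum, BRAF entered as 1 core gene higher, the METTL3-WT median was -0.36, 1823 genes were higher and 2140 lower, and 6 pathway genes were higher. With a minimum mean of 5 FPKM, 88 genes were higher and 410 lower. A pseudocount of 1 FPKM left 159 genes higher. A 2-fold limit left 84 higher and 207 lower, and 0 core genes higher and 0 lower in METTL3-WT polysomes. Under each of these last 3, 0 pathway genes were higher and 0 lower. The main counts were 445 and 767 genes, and 3 and 2 pathway genes. The cause of the moves under other scalings was not tested.

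The depth limits BRAF most, with about 107 to 153 fragments per library.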
